A study of Rattus norvegicus with 21 samples.

Results

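Gcg, Irx1, Irx2, Ttr and Gc are genes used as marks of the glucagon-producing alpha cells of the pancreatic islet. They were taken by name from the deposited count table, in which all 5 were found among 28914 gene names. The table holds polyadenylated RNA of isolated islets of Langerhans from Lewis rats in 21 libraries. In 10 libraries (Sham) the animals had a sham operation, and in 11 (PX) a partial pancreatectomy, of 90% per the series' design text. This operation removes most of the pancreas, leaving a remnant from which these islets came. Islets were taken 4 weeks after surgery. The labels name no genetic change, drug or sex, and one label reads 4-5 week without saying whether this is an age. Each title carries an animal number, by which libraries are called here, and a BG value without a unit, which a second label describes as an average before sacrifice. Every title also carries Inc_YES, whose meaning the labels do not give. BG ran from 82 to 104 in Sham (94.7 ± 6.0, SD, n = 10) and from 101 to 174 in PX (124 ± 23.1, SD, n = 11). The labels do not say how islets were pooled, so a p-value here measures how these libraries vary, which may be partly technical.

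Alpha cells secrete glucagon when glucose is low, and glucagon makes the liver release glucose. Gcg encodes proglucagon, which prohormone convertase 2 cuts into glucagon in alpha cells and prohormone convertase 1 cuts into GLP-1 in gut L cells. Irx1 and Irx2 encode neighbouring Iroquois homeodomain transcription factors, which in the islet are found mainly in alpha cells. Gc encodes the vitamin D binding protein and Ttr encodes transthyretin, a carrier of thyroid hormone and retinol. Both are liver plasma proteins that are also made in islets, and Gc is known to be enriched in alpha cells of mice and humans.

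In the deposited annotation, whose genome build is not given in the sources used here, Gcg lies on the minus strand of chromosome 3 from 48442635 to 48451650. Counts were summed over its exons, of which 6 are listed. Irx2 (minus strand, 33271977 to 33275540) and Irx1 (plus strand, 33910912 to 33916741) are both on chromosome 1 and have 4 listed exons each. Gc is on chromosome 14 (plus strand, 20266891 to 20302581, 13 exons) and Ttr on chromosome 18 (minus strand, 15532963 to 15540177, 4 exons).

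The 250 bases before the annotated start differ between a hormone gene, a carrier gene and the 2 homeodomain factor genes, and are shown as a description. Any link of these bases to differences between PX and Sham was not tested. They are RefSeq sequences of build GRCr8, printed on the gene's strand from 5′ to 3′ and ending at the base before the start. Capitals mark TATAAA, the letters of a TATA box, and TAAT, the core read by many homeodomain factors, on either strand. The windows are chr3:67531534-67531783 (minus strand) for Gcg, chr14:18916005-18916254 (plus) for Gc, chr1:33122872-33123121 (plus) for Irx1 and chr1:32494931-32495180 (minus) for Irx2.
Gcg: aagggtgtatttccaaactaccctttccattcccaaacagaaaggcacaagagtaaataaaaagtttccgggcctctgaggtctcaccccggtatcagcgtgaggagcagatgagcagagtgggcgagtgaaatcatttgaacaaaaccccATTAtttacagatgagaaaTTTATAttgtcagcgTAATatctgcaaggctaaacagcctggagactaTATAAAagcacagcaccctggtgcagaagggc
Gc: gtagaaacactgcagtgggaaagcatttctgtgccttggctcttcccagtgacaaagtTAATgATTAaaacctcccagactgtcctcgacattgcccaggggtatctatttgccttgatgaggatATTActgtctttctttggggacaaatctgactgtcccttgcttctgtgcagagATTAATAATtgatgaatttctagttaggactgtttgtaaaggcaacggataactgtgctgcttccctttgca
Irx1: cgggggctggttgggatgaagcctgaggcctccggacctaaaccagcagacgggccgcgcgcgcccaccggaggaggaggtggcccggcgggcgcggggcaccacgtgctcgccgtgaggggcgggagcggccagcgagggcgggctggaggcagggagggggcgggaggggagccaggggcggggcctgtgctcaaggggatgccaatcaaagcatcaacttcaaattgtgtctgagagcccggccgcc
Irx2: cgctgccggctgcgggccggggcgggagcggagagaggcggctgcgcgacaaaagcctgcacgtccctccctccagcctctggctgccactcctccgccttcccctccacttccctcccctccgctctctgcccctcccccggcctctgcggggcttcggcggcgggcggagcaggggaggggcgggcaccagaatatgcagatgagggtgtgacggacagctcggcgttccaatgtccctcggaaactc
The Gcg window held TATAAA in 2 places, the nearer to the start beginning 32 bases before it, and TAAT in 2 places. The Gc window held TAAT in 6 places, some of them overlapping, and no TATAAA. Neither string occurred in the Irx1 and Irx2 windows. GC content was 44.8% for Gcg and 43.2% for Gc, against 72.8% for Irx1 and 71.6% for Irx2. Among 33469 RefSeq rat promoter windows of the same length, 12.9% held TATAAA, 57% held TAAT, and the median GC content was 51.2%. These matches describe letters only and say nothing of which factor binds.

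Per kilobase of the deposited transcript length, Gcg was the most abundant of the 5 genes in every library. Its mean over all 21 libraries was 11102 scaled counts (CPM, a count of reads relative to the size of its library) per kilobase. Among the other islet hormones on the same scale, Ins1 (insulin 1) had 181710, Iapp (amylin) 47829, Ins2 (insulin 2) 38105, Ppy (pancreatic polypeptide) 1842 and Sst (somatostatin) 1138. Gc followed at 668, between the hormones and the transcription factors. Irx2 had 3.24, Irx1 1.76 and Ttr 1.42 CPM per kilobase. The order from Gcg to Gc to Irx2 held in 21 of 21 libraries, Irx2 was above Irx1 in 20 of 21, and Irx1 was above Ttr in 13 of 21, so the last 2 did not differ beyond their spread. The level of Ttr as counted was thus near that of Irx1, and whether Ttr marks alpha cells in these libraries was not tested.

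Depth ranged from 4001908 to 13187959 assigned reads per library. Gcg rested on 26372 to 289712 reads, Gc on 3337 to 21788 reads, Irx1 on 2 to 84, Irx2 on 6 to 92 and Ttr on 1 to 19. For the smallest Irx1 count, 2 reads in PX 65, the 95% exact Poisson interval was 0.0513 to 1.53 CPM, which covers counting error only. CPM here are scaled with edgeR's TMM factors (trimmed mean of M values), which set aside genes that take a very different share of reads in one library.

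The animal numbers fall into 5 stretches, each of 1 group, so stretch and group cannot be told apart. In order of number they are Sham 21 to 24, PX 36 to 44, Sham 46 to 50, PX 57 to 70, and Sham 73 and 74. The share of reads from markers of acinar cells, the enzyme-secreting cells around the islets, was 0.633 to 5.99% over Sham 21 to 24, 73 and 74, and 13 to 23.6% in Sham 46 to 50. In PX 36 to 44 this acinar share was 6.19 to 16.4%, and PX 57 to 70 had the highest shares, 17.1 to 48.8%. The first and last Sham stretches were joined in some comparisons below because their acinar shares were alike. They were joined after the values of the libraries, those of Gcg and the Irx genes included, had been seen, and the joined set is no stretch of the labels. All 14 tested macrophage markers and all 11 tested mesenchymal markers were higher in PX, with summed levels of 48 to 149 CPM in Sham and 198 to 1886 CPM in PX for macrophages and of 251 to 836 CPM and 712 to 2830 CPM for mesenchymal cells. No marker of either list was at 0 throughout, and 14.9% of all genes tested were higher in PX. The part of these other cells in the results below was tested only as far as the fits named beside them, and in whole islets fewer cells of a type cannot be told apart from less RNA per cell.

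Glucagon transcript was abundant and variable in both groups. Gcg ran from 5930 CPM (Sham 48) over a median of 10254 to 21095 CPM (Sham 73) in Sham, and from 4401 (PX 38) over 10330 to 25096 CPM (PX 44) in PX. The groups overlapped almost wholly, with 2 PX libraries below the lowest Sham and 1 above the highest. The means were 12889 ± 5828 CPM (SD, n = 10) and 10580 ± 5816 CPM (SD, n = 11). The log2 fold change of PX over Sham was -0.28 ± 0.29 (SE), with an adjusted p of 0.471 in edgeR's quasi-likelihood test with Benjamini-Hochberg adjustment over 13136 genes. Across all these genes 31.1% passed an adjusted p of 0.05 (16.2% lower and 14.9% higher in PX), and the median log2 fold change was -0.04. The authors' deposited table lists a log2 fold change of -0.33 for Gcg with an adjusted p of 0.386.

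Gcg varied within the stretches of animal numbers as well as between them. In PX 36 to 44 it ran from 4401 to 25096 CPM around a median of 7170, which is the whole range of all 21 libraries. In Sham 46 to 50 it ran from 5930 to 10525 CPM (median 9833) and in PX 57 to 70 from 6812 to 13561 CPM (median 10364). Of the other 5 Sham libraries, 4 had between 17902 and 21095 CPM, and Sham 22 had 7484. The sign of the Gcg difference turned with the libraries compared. The log2 fold change was -0.45 between Sham 21 to 24 and PX 36 to 44 (edgeR quasi-likelihood, adjusted p 0.776), -0.88 between Sham 73 and 74 and PX 57 to 70 (adjusted p 0.124) and 0.28 between Sham 46 to 50 and PX 57 to 70 (adjusted p 0.509). With the joined Sham set against PX 36 to 44 it was -0.60 (adjusted p 0.432).

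**Figure D1:**
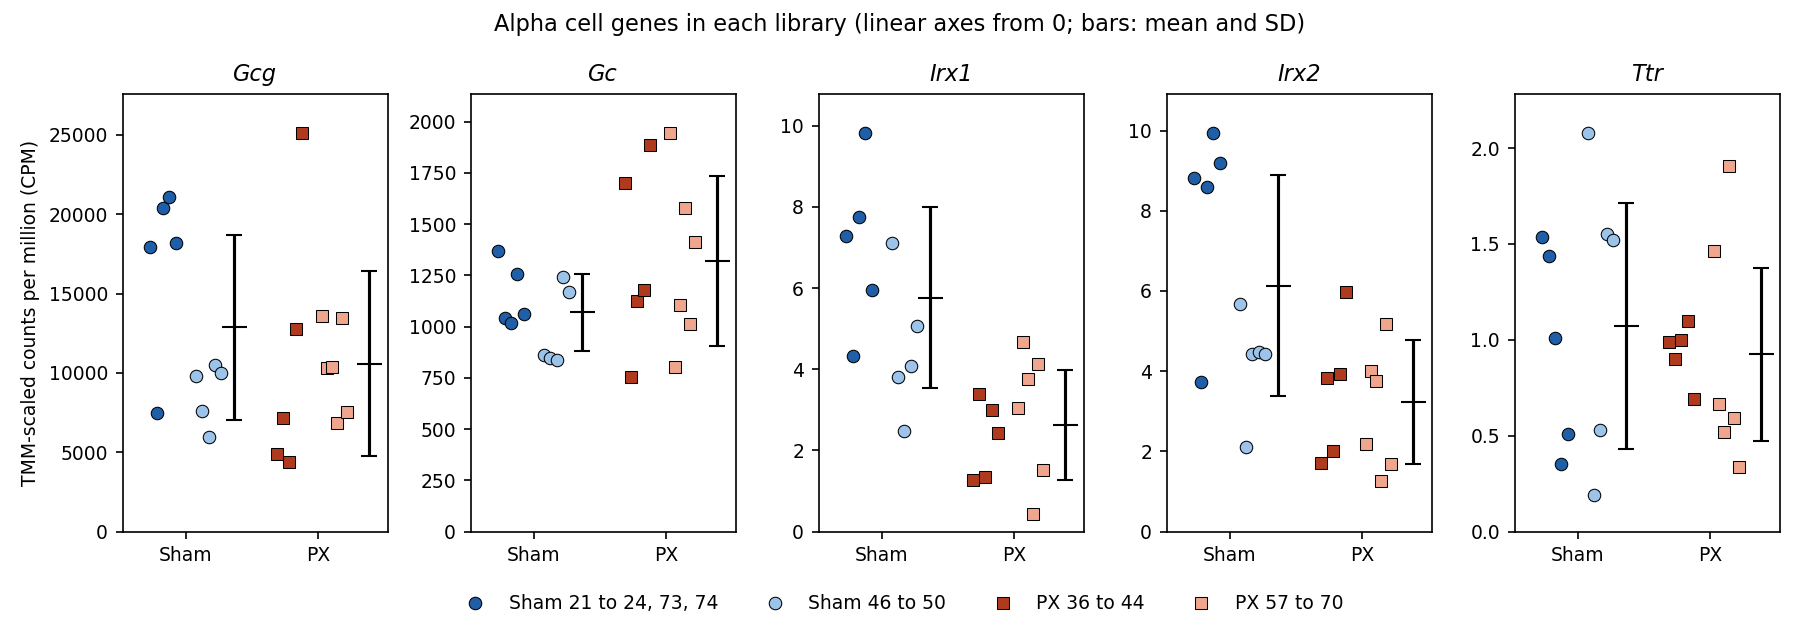
TMM-scaled CPM of each gene in the 10 Sham libraries (circles) and 11 PX libraries (squares), 1 panel a gene with its own linear axis from 0. Shades mark the stretches of animal numbers, the first and last Sham stretches joined, and the bars the mean and SD of each group. All 11 PX libraries lie under the Sham median for Irx1, while Gcg overlaps from end to end.

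The 2 Iroquois factors were lower in PX. Irx1 ran from 2.47 CPM (Sham 48) over a median of 5.51 to 9.81 CPM (Sham 73) in Sham, and from 0.424 (PX 65) over 2.99 to 4.67 CPM (PX 58) in PX. All 11 PX libraries were below the Sham median, 5 were below the lowest Sham library, and 6 Sham libraries were above the highest PX library. Irx1 fell by 1.11 on the log2 scale (SE 0.29), which is 2.16-fold, with an adjusted p of 0.0047 (edgeR quasi-likelihood, Benjamini-Hochberg).

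Irx2 ran from 2.10 CPM (Sham 47) over 5.08 to 9.93 CPM (Sham 73) in Sham, and from 1.27 (PX 65) over 3.75 to 5.98 CPM (PX 44) in PX. Of the PX libraries 9 of 11 were below the Sham median and 4 below the lowest Sham library, so the groups overlapped more than for Irx1. Irx2 fell by 0.90 on the log2 scale (SE 0.28), a 1.87-fold difference with an adjusted p of 0.0169 in the same edgeR fit. With these, 2 of the 4 members that could be tested passed, both lower, where 16.2% of all genes tested were lower. In the authors' deposited table the log2 fold changes are -1.20 for Irx1 (adjusted p 0.0045) and -0.88 for Irx2 (adjusted p 0.0241).

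The size and call of the Irx difference depended on which libraries were used. In the joined Sham set the medians were 7.29 CPM for Irx1 and 8.82 CPM for Irx2, against 4.08 and 4.43 CPM in Sham 46 to 50. In PX the medians were 2.43 and 3.83 CPM in PX 36 to 44 and 3.40 and 2.97 CPM in PX 57 to 70, below both Sham sets for both genes. Between Sham 46 to 50 and PX 57 to 70, which have the larger acinar shares, the log2 fold changes were -0.56 for Irx1 and -0.43 for Irx2, and neither passed (edgeR quasi-likelihood, adjusted p 0.384 and 0.424, with 17.3% of all genes passing). Between the joined Sham set and PX 36 to 44 they were -1.59 (edgeR adjusted p 0.0054) and -1.12 (adjusted p 0.0537), with 11.4% of genes passing. Without the joining, Sham 21 to 24 against PX 36 to 44 gave -1.47 (edgeR adjusted p 0.0502) and -0.95 (adjusted p 0.289), so neither passed, with 4.17% of genes passing. Sham 73 and 74 against PX 57 to 70 gave -1.34 (edgeR adjusted p 0.110) and -1.58 (adjusted p 0.0382), with 16.9% passing. Sham 46 to 50 against all PX gave -0.73 (edgeR adjusted p 0.229) and -0.33 (adjusted p 0.592), with 11.5% passing. All Sham against the 8 PX libraries of BG 121 or less gave -0.97 (edgeR adjusted p 0.0226) and -0.73 (adjusted p 0.0917), so Irx1 passed and Irx2 did not, with 19.3% passing. With the acinar marker level as a covariate they were -0.92 (adjusted p 0.0572) and -0.58 (adjusted p 0.212), with 17.0% passing. Without Sham 21, 24, 73 or 74, each left out alone, Irx2 no longer passed (log2 fold changes from -0.79 to -0.75, adjusted p from 0.0502 to 0.0589), while Irx1 passed without any 1 library. With the macrophage marker level as a covariate the values were -1.67 for Irx1 (adjusted p 0.217) and -0.68 for Irx2 (adjusted p 0.655). That fit passed 9 genes in all (0.0685%), and the R2 of the macrophage level on group was 0.771.

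**Figure D2:**
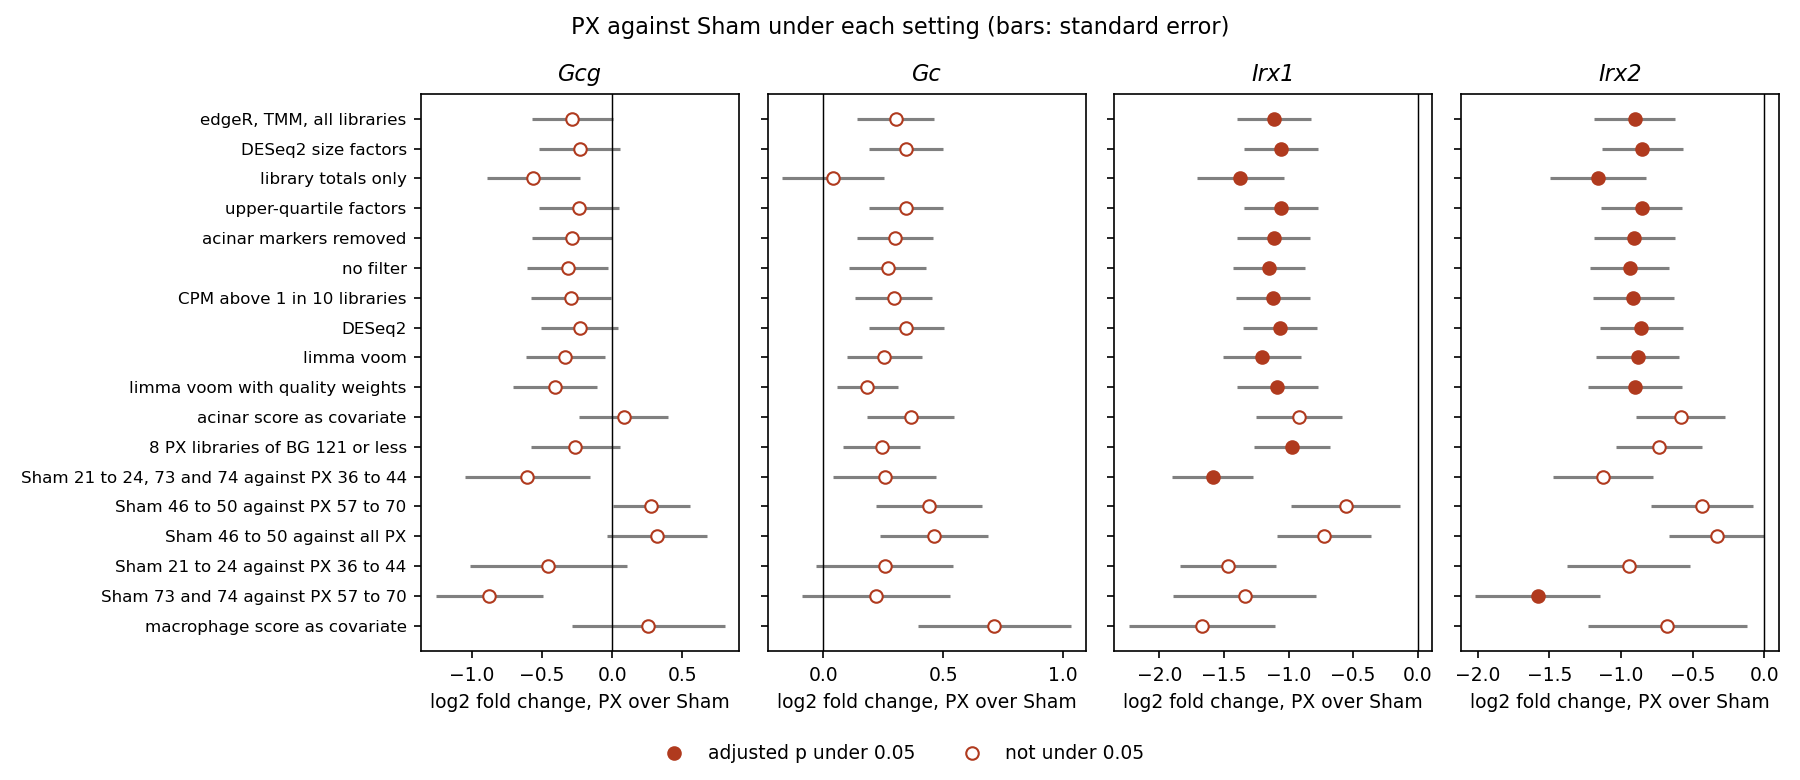
Log2 fold change of PX over Sham (horizontal axis, bars the standard error) for 4 genes under each way of scaling, filtering, testing or choosing libraries (rows). Irx1 and Irx2 are below 0 in every row, and open points mark rows in which the adjusted p was not under 0.05.

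Relative to Gcg in the same library, both factors were also lower, a comparison that scaling between libraries cannot move. The log2 ratio of Irx1 to Gcg reads was -11.07 ± 0.33 in Sham (SD, n = 10) and -11.99 ± 0.84 in PX (SD, n = 11). Of the PX libraries 8 of 11 were below the lowest Sham ratio. The difference was -0.92 (two-sided permutation test, Benjamini-Hochberg over 6 ratios, adjusted p 0.0071). For Irx2 to Gcg the ratio was -11.03 ± 0.35 in Sham and -11.63 ± 0.54 in PX, a difference of -0.60 (permutation test, adjusted p 0.0144), with 10 of 11 PX libraries below the Sham median. Leaving out any 1 library kept both differences past the threshold. Between Sham 46 to 50 and PX 57 to 70 the differences were -1.06 for Irx1 (exact permutation test, p 0.0130, adjusted p 0.0649) and -0.79 for Irx2 (adjusted p 0.0952), and between the joined Sham set and PX 36 to 44 -0.76 and -0.37 (adjusted p 0.286 for each). Against the 8 PX libraries of BG 121 or less they were -0.69 and -0.40 (exact permutation test, adjusted p 0.0546 and 0.0944).

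Within a group, Irx1 and Irx2 followed Gcg from library to library. After each group's mean was subtracted, Pearson's r of log2 CPM over 21 libraries was 0.79 between Gcg and Irx2, 0.65 between Gcg and Irx1 and 0.77 between the 2 Irx genes. In Sham alone, r with Gcg was 0.87 for each, and in PX alone 0.54 for Irx1 and 0.73 for Irx2. These values are descriptions, since the libraries share stretches, depth and acinar share.

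The 4 other Iroquois genes were at the edge of detection. Irx3 had 14 reads over all 21 libraries, Irx5 had 3, Irx4 had 1 and Irx6 had none. None entered the test.

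The carrier Gc was a strongly read gene that did not pass the test. It ran from 838 CPM (Sham 48) over a median of 1050 to 1370 CPM (Sham 21) in Sham, and from 753 (PX 37) over 1180 to 1942 CPM (PX 57) in PX. PX libraries lay on both sides of the Sham range, with 5 above it and 2 below it. The means were 1069 ± 187 CPM (SD, n = 10) and 1318 ± 414 CPM (SD, n = 11), and the log2 fold change was 0.30 ± 0.16 (SE, edgeR quasi-likelihood, adjusted p 0.153). Without PX 37, the lowest library, it was 0.41 with an adjusted p of 0.0311, and with library totals in place of TMM 0.041 (adjusted p 0.892). Gc did not follow Gcg closely in PX (r = 0.20, n = 11) and did so more in Sham (r = 0.62, n = 10). The ratio of Gc to Gcg reads ran from 0.0499 to 0.141 in Sham and from 0.0752 to 0.348 in PX. In 5 PX libraries it was above the highest Sham value, and the difference in log2 ratio was 0.57 (permutation test, adjusted p 0.105).

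Transthyretin had few assigned reads in these islets, and whether reads were lost in counting was not tested. Ttr ran from 0.191 CPM (Sham 47) over 1.22 to 2.08 CPM (Sham 46) in Sham and from 0.336 (PX 70) over 0.902 to 1.91 CPM (PX 65) in PX, from counts of 1 to 19 reads. The groups overlapped fully, with means of 1.07 ± 0.641 CPM (SD, n = 10) and 0.924 ± 0.451 CPM (SD, n = 11). The gene failed the filter on low counts and had no test there. Without the filter its log2 fold change was -0.31 (edgeR quasi-likelihood, adjusted p 0.532). At this depth counting error alone is wide, with a 95% exact Poisson interval of 0.00483 to 1.06 CPM for the single read of Sham 47. Ttr showed no relation to Gcg over the libraries (r = -0.09 within groups, n = 21).

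Since Gc and Ttr are also liver genes, the list of hepatocyte markers is given beside them. Of its 8 genes 5 could be tested, of which 3 were higher in PX and none lower, where 14.9% of all genes tested were higher. Apob (apolipoprotein B) had means of 109 CPM in Sham and 333 CPM in PX, Tf (transferrin) 65.6 and 314 CPM, and Fgb (fibrinogen beta chain) 7.17 and 33.8 CPM. Alb (albumin) had 0.756 and 2.04 CPM and Apoa1, an apolipoprotein made in liver and gut, 0.522 and 4.40 CPM. Serpina1 had 32.8 and 30.0 CPM and Hnf4a 39.8 and 33.2 CPM, so both means were lower in PX. The summed level of the list ran from 190 to 393 CPM in Sham and from 475 to 1603 CPM in PX. It was highest in PX 65, whose TMM factor was 0.359 and where Gc had 1578 CPM. In PX 57 and PX 44, where Gc was highest (1942 and 1887 CPM), the sums were 709 and 490 CPM. The part of these transcripts in the Gc values was not tested.

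Of 2 ratios of glucagon to other hormones, that to somatostatin differed between the groups. Reads of Gcg over those of Ins1 and Ins2 together ran from 0.055 over a median of 0.113 to 0.300 in Sham and from 0.0463 over 0.109 to 0.522 in PX. The log2 difference was -0.18 (permutation test, adjusted p 0.654). Reads of Gcg over those of Sst, the delta cell hormone that restrains glucagon release, ran from 6.95 over 11.7 to 26.2 in Sham and from 12.3 over 21.6 to 74 in PX. All 11 PX libraries were above the Sham median, and the log2 difference was 0.87 (1.83-fold, permutation test, adjusted p 0.0144). It was 1.13 for Sham 46 to 50 against PX 57 to 70 (exact permutation test, adjusted p 0.0649) and 0.62 for the joined Sham set against PX 36 to 44 (adjusted p 0.419), so neither passed. Sst itself fell from 992 ± 259 CPM (SD, n = 10) to 430 ± 119 CPM (SD, n = 11), a log2 fold change of -1.21 ± 0.17 (edgeR quasi-likelihood, adjusted p 1.3e-05).

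**Figure D3:**
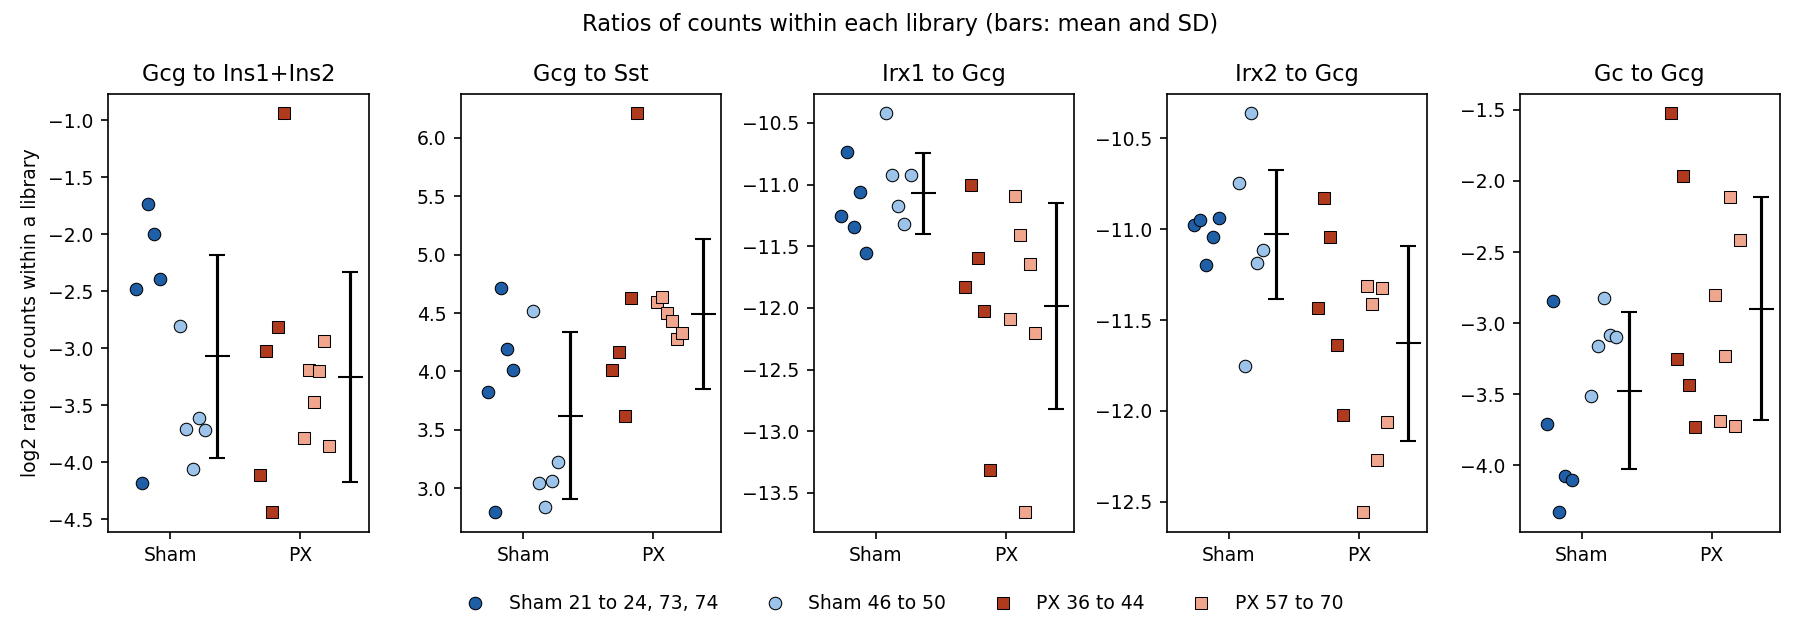
Log2 ratio of read counts within each library for 5 gene pairs, Sham as circles and PX as squares, with the mean and SD of each group beside them. Gcg to Sst is above the Sham median in all 11 PX libraries, and Irx1 to Gcg is below the lowest Sham library in 8 of them.

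Transcription factors of the glucagon gene fell where they passed. Of 11 listed factors 8 could be tested, of which 4 were lower in PX, none was higher and 4 did not pass. The median log2 fold change was -0.56. Of all genes tested 16.2% were lower and 14.9% higher. Pou3f4 (Brn4), an alpha cell POU factor, changed by -1.18 ± 0.32 (SE, edgeR quasi-likelihood, adjusted p 0.00668). Pax6 and Isl1, which act in all islet endocrine cells, changed by -0.64 and -0.47. Between Sham 46 to 50 and PX 57 to 70 none of the 8 factors passed, with 17.3% of all genes passing. In the joined Sham set against PX 36 to 44, 4 factors passed, all lower, with 11.4% of all genes passing.

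Other genes listed as alpha cell genes moved both ways. Of 16 genes 15 could be tested, of which 6 were higher, 3 lower and 6 did not pass. The median log2 fold change was 0.49. Of all genes tested 14.9% were higher and 16.2% lower. Slc7a2, a transporter of cationic amino acids such as arginine, fell by 0.69 (SE 0.13, edgeR adjusted p 0.000324). Slc38a5, a glutamine transporter of alpha cells, rose from 553 ± 59.1 CPM to 878 ± 208 CPM (log2 fold change 0.67 ± 0.12, edgeR adjusted p 0.000295). Tm4sf4, a membrane protein of the tetraspanin-like L6 family, rose by 0.49 and Plce1, a phospholipase C, by 0.59. The 3 with the highest fold changes were Fap (2.33), Loxl4 (1.99) and Dpp4 (1.62), at means of 1.02 to 1.75 CPM in Sham. Fap is also a protease of activated fibroblasts, Dpp4 a protease that inactivates GLP-1 and is found on many cells, and Loxl4 an enzyme that crosslinks collagen. They stood beside the 11 mesenchymal markers that were all higher in PX, and the part of those cells was not tested.

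Of 6 genes that process prohormones, 1 passed the test and Pcsk2 did not, where 31.1% of all genes tested passed. Pcsk2, the convertase that releases glucagon, had 3626 ± 766 CPM in Sham and 3099 ± 819 CPM in PX (log2 fold change -0.23 ± 0.15, edgeR adjusted p 0.272). Pam, the enzyme that amidates peptide ends, rose by 0.61 (SE 0.15, edgeR adjusted p 0.00309).

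Of 4 receptors listed with the proglucagon peptides, 3 could be tested, of which 2 were lower, where 16.2% of all genes tested were lower. Gcgr, the glucagon receptor, had a log2 fold change of 0.28 ± 0.15 and did not pass (edgeR adjusted p 0.154). Glp1r, the GLP-1 receptor of beta and delta cells, fell by 0.58 (SE 0.16, edgeR adjusted p 0.00629), and Gipr, the receptor of the incretin GIP, by 0.43 (adjusted p 0.0376). Glp2r had means of 0.112 and 0.0836 CPM and no test.

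Genes known to control glucagon secretion were mostly lower. Of 18 genes, all of which could be tested, 12 were lower, 2 higher and 4 did not pass. The median log2 fold change was -0.51. Of all genes tested 16.2% were lower and 14.9% higher, with a median of -0.04. Casr, the calcium-sensing receptor, fell from 39.9 ± 11.8 CPM to 14.6 ± 7.0 CPM (log2 fold change -1.43 ± 0.23, edgeR adjusted p 6.86e-05). The sodium channel subunits Scn9a and Scn8a fell by 1.26 and 0.97, and the calcium channel subunits Cacna1c, Cacna1a and Cacna1d by 0.82, 0.80 and 0.66. Abcc8, the sulfonylurea receptor of the ATP-sensitive potassium channel, fell by 0.50, and Ffar1, a fatty acid receptor, by 0.52. Most of these genes are also active in beta cells, so the list is not one of alpha cells alone. Between Sham 46 to 50 and PX 57 to 70 the list had 8 lower and none higher, with 17.3% of all genes passing.

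**Figure D4:**
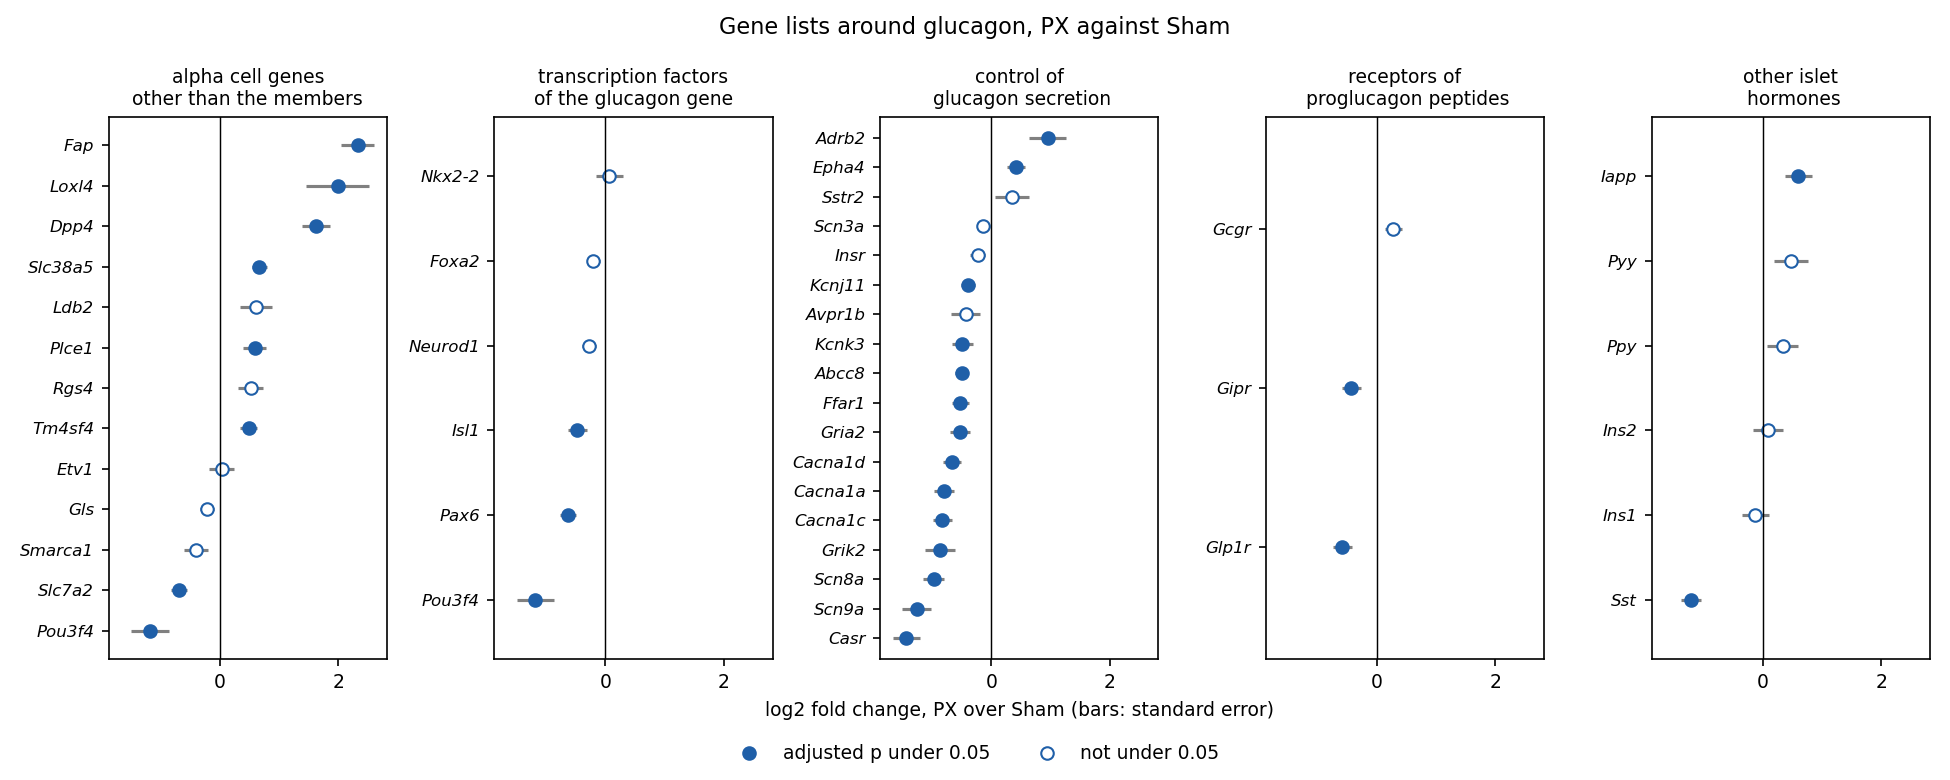
Log2 fold change of PX over Sham with its standard error for the genes of 5 lists that are reported here, filled where the adjusted p was under 0.05. The list on control of secretion has 12 filled points below 0 and 2 above it. Of all genes tested 16.2% were lower and 14.9% higher.

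Among genes that work with the carriers, those that passed were lower. Of 9 listed partners of Ttr 5 could be tested and 4 fell, where 16.2% of all genes tested were lower and 14.9% higher. Rbp4, the plasma retinol carrier that binds transthyretin and is also a delta cell gene, fell by 1.02 (SE 0.25, edgeR adjusted p 0.0033). Thra and Thrb, the thyroid hormone receptors, fell by 0.56 and 0.42, and Slc16a10, a transporter of thyroid hormone and aromatic amino acids, by 0.50. Of 7 partners of Gc 5 could be tested, of which 2 fell and 3 did not pass, beside the same shares of all genes. Lrp2 and Cubn, which take up vitamin D with its carrier, fell by 0.66 and 0.78. Of 3 albumin family genes beside Gc, Afm alone had enough reads and did not pass.

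Against BG within PX, no gene passed. The slope of Gcg was -0.08 ± 0.10 log2 units (SE) per 10 BG units, of Irx1 -0.17 ± 0.11, of Irx2 -0.17 ± 0.09 and of Gc 0.04 ± 0.06 (edgeR quasi-likelihood, adjusted p from 0.472 to 0.816). Of 14442 genes 0 passed (0%), with 1756 at an unadjusted p under 0.05, and DESeq2 called 27. Within Sham, whose BG covers a narrow range, 0 of 13766 passed and 120 were under 0.05 unadjusted.

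Correlations of log2 CPM with BG were computed for the 5 genes in each group, 10 in all, with permutation p-values adjusted by Benjamini-Hochberg. Over all libraries of a group, Ttr in PX alone passed, with Pearson's r = 0.82 (permutation p 0.00105, adjusted p 0.0105) and Spearman's rho = 0.84 (permutation p 0.00182, adjusted p 0.0182), n = 11. Without PX 41 and PX 65, the farthest from the median BG, r was 0.77. This rests on counts of 2 to 12 reads. PX 65, with the highest BG (174), has a TMM factor of 0.359, and when library totals alone scaled the counts r was 0.37 (permutation test, adjusted p 0.375). Among the 8 PX libraries of BG 121 or less r was 0.57 (exact permutation test, adjusted p 0.229 over 5 genes).

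For Gcg in PX, r was -0.15 over all 11 libraries (permutation p 0.644, adjusted p 0.716). Among the 8 libraries of BG 121 or less it was -0.87 (exact permutation p 0.00526, adjusted p 0.0263 over 5 genes), and Spearman's rho was -0.80 (exact permutation p 0.0230, adjusted p 0.115). There Gcg was highest in PX 44, with the lowest BG of the group (101), and lowest in PX 38 and PX 36 (BG 119 and 121). Without PX 36, the farthest from the median BG there, and PX 38, r was -0.73 (n = 6). PX 44 is as far from that median as PX 38 and was kept, and r without PX 44 was not computed. In the edgeR fit over the same 8 libraries Gcg did not pass, with a slope of -1.13 ± 0.28 log2 units (SE) per 10 BG units and an adjusted p of 0.963, where 0 of 13654 genes passed. With library totals alone, r over all 11 PX libraries was -0.46 (permutation test, adjusted p 0.274). The 3 libraries of higher BG did not continue this fall, at 13561 (PX 57), 12755 (PX 41) and 6812 CPM (PX 65). Irx1 and Irx2 in PX had r = -0.52 and -0.50 (permutation test, adjusted p 0.270 for each), and without PX 41 and PX 65 r was -0.12 and -0.57.

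**Figure D5:**
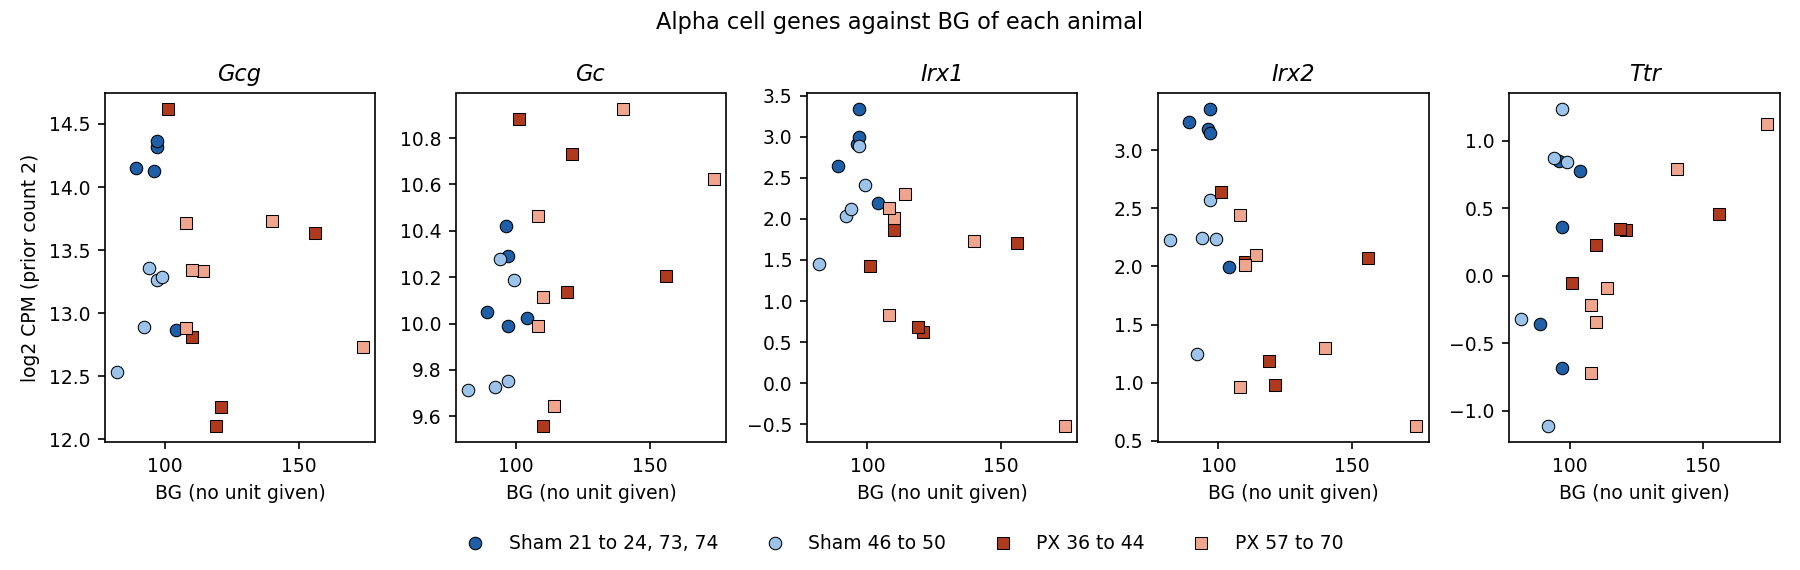
Log2 CPM of each gene (vertical axis) against the BG of the animal (horizontal axis, no unit given in the labels), Sham as circles and PX as squares. PX 65, at BG 174, is the lowest library for Irx1 and Irx2 and the highest PX library for Ttr.

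The genes whose levels were most like those of Gcg were ranked by r of log2 CPM within groups over 21 libraries, among 8225 named genes whose mean reached 10 CPM. The 8 highest were Wnk3 (0.93), Tnr (0.88), Golga7b (0.86), Nalcn (0.86), Pdk4 (0.78), Ndst4 (0.76), Tmem59l (0.75) and Dgkb (0.75). Wnk3 is a kinase that regulates chloride cotransporters, Nalcn a sodium leak channel and Pdk4 a kinase that restrains pyruvate entry into the citric acid cycle. All of the 8 except Tmem59l were lower in PX in the edgeR fit, from -1.43 (Ndst4) to -0.44 (Pdk4). Of all genes tested 16.2% were lower, and Gcg itself did not pass. For Irx2 the 3 highest were Col14a1 (0.89), Nup107 (0.81) and Gcg (0.79), and for Irx1 Col14a1 (0.77), Oxtr (0.76) and Ccdc9 (0.76). For Gc they were Cct2 (0.90), Dynlt3 (0.89) and Pgrmc1 (0.89), and for Ttr, at its low counts, Cyth3 (0.81), Cdc123 (0.79) and Dnajc5 (0.76).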

How the data were processed

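Polyadenylated RNA of rat islets was sequenced with a directional kit, per the labels' protocols. The submitters' processing notes name Subread, featureCounts, limma and FastQC without versions. Genome build and strand setting of the counting were not found in the labels or headers. The authors deposited unnormalized counts, whole reads for each gene name in the layout of featureCounts, and a table of their own log2 fold changes, linear fold changes and p-values, used only where named. Columns were matched to samples by title.

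From the counts, PX was compared with Sham in edgeR 4.0.16 (R 4.3.3) by quasi-likelihood with TMM scaling and filterByExpr (minimum count 10, minimum total 15), with Benjamini-Hochberg adjustment of p over every gene tested. A gene passed, rose or fell at an adjusted p under 0.05. Slopes on BG used the same fit within each group. Ratios used counts plus 0.5 and permutation tests with 100000 resamples (exact with fewer than 10 libraries in a group). Log2 CPM had a prior count of 2. The edgeR fit was tested on simulated data: for PX against Sham it recovered 77% of genes with a simulated log2 change of 1, and 30% at 0.5. The simulation changed a smaller share of genes than passed here and held no stretches of animal numbers or acinar differences. Its recovery rates therefore need not hold for these data or for genes with few reads. DESeq2, limma voom, other scalings, filters, covariates and subsets were alternatives.

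The members, lists and stretches of animal numbers, and the joining of Sham 21 to 24 with Sham 73 and 74, were chosen with earlier results of these data known. Beyond the 5 members, the text names at most 8 called genes a list by p, Pcsk2, Gcgr and Sst, and the genes most like each member. Some genes counted in the lists are not reported here by name or value, nor drawn. Other genes named with values (the other hormones, the other Irx genes, Glp2r, Afm and the hepatocyte markers) were chosen after their values were seen. Sequences are from RefSeq (GRCr8), and 4 of the 5 members were printed.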

Additional observations from a re-analysis of the deposited data

How the results depend on the processing

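No paired analysis was possible because each animal number belongs to 1 library and the groups share none. PX against Sham was refitted under 38 alternatives, of which 21 left out 1 library each and so used nearly the same data. Irx1 stayed lower in all 38 and passed in 32, among them each of those 21. The fits in which Irx1 did not pass had a covariate or used subsets of animal numbers. Irx2 stayed lower in all 38 and passed in 27, and Gc stayed higher in all 38 (0.041 to 0.71) and passed in 1. Gcg was lower in 34 and reversed in 4. Scaling by library totals alone moved the median of all genes from -0.04 to -0.28 (log2), and under it Irx1 and Irx2 still passed, with Gcg at -0.56 and Gc at 0.041 (edgeR adjusted p 0.195 and 0.892). With the acinar covariate no member passed (0 called), with Gcg at 0.083, Irx1 at -0.92 and Irx2 at -0.58. With the macrophage covariate, added after seeing the data, 0 were called, with Gcg at 0.26, Irx1 at -1.67 and Irx2 at -0.68. Among subsets of animal numbers, also added after seeing the data, Sham 46 to 50 against PX 57 to 70 called 0, with Gcg at 0.28, Irx1 at -0.56 and Irx2 at -0.43. Sham 46 to 50 against all PX called 0, with Gcg at 0.32, Irx1 at -0.73 and Irx2 at -0.33. Sham 21 to 24, 73 and 74 against PX 36 to 44 called 1 member and gave Irx2 -1.12. Sham 21 to 24 against PX 36 to 44 called 0, with Irx1 at -1.47 and Irx2 at -0.95. Sham 73 and 74 against PX 57 to 70 called 1, with Irx1 at -1.34. The 8 PX libraries of BG 121 or less called 1, with Irx2 at -0.73. Leaving out each library gave -0.44 to -0.13 for Gcg, -1.23 to -0.94 for Irx1, -1.01 to -0.75 for Irx2, 0.23 to 0.41 for Gc, and 1 to 3 members called. In the 8 PX libraries, Gcg to Sst differed by 0.85, Irx1 to Gcg by -0.69 and Irx2 to Gcg by -0.40, none past the threshold (adjusted p 0.0753, 0.0546 and 0.0944). For Sham 46 to 50 against PX 57 to 70 the ratio differences were 0.17 (Gcg to insulin, reversed), 1.13 (Gcg to Sst), -1.06 (Irx1 to Gcg), -0.79 (Irx2 to Gcg) and -0.46 (Ttr to Gcg, reversed). For Sham 21 to 24, 73 and 74 against PX 36 to 44 they were 0.62 (Gcg to Sst), -0.76 (Irx1 to Gcg) and -0.37 (Irx2 to Gcg). The Gc slope on BG in PX was -0.061 with library totals and -0.11 in the 8 libraries, and its r was -0.27 and -0.14. In the 8 libraries the slopes were -1.13 for Gcg, -0.43 for Irx1 and -0.80 for Irx2, none past the threshold (edgeR adjusted p 0.963 for each). The Gcg slope ran from -0.14 to 0.013 when 1 library was left out, the last without PX 44. The r of Ttr with BG was 0.37 with library totals and 0.57 in the 8 libraries. The cause of these changes was not tested. Over the alternatives, the alpha cell list had 0 to 8 genes higher and 0 to 5 lower, the transcription factors 0 to 6 lower and 0 to 1 higher, and the secretion list 0 to 13 lower and 0 to 2 higher, where 0 lower in the secretion list came with the macrophage covariate. Depth limits Ttr, at 1 to 19 reads, and the other Iroquois genes.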
